A study of Homo sapiens with 32 samples.

Results

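The genes described here were the nuclear genes of respiratory complex I, taken as the protein-coding genes of GENCODE release 44 on chromosomes 1 to 22 and X whose symbol starts with NDUF. They numbered 48 of 19970 protein-coding genes. By role they were 7 core subunits, 9 accessory subunits of the matrix arm, 20 accessory subunits of the membrane arm, the acyl carrier subunit NDUFAB1, 8 assembly factors and 3 genes that carry the prefix without coding for a separate subunit of the complex (NDUFA4, NDUFA4L2 and the read-through NDUFC2-KCTD14). NDUFC2-KCTD14 shares its promoter with NDUFC2, so that the same summits were counted for both.

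The study was a ChIP-seq experiment in HEK293T, a human embryonic kidney line, in which ZNF143 carries an inducible degron tag. The 32 samples fell into 10 groups: 4 untreated samples and 4 given dTAGV-1 for each of SP1, NRF1 and YY1, and 2 of each kind for ZNF143, precipitated through its HA tag, and for a mock precipitation. Treated cells had received 50 nM dTAGV-1, a compound that sends the tagged protein for degradation, for 30 min. All groups, the untreated ones included, carried the tag on ZNF143 and came from a source labelled HEK_CloneZD29, so that the model is a single clone of an immortalized line. The deposited lists used here gave the peak summits of each factor, with no value per sample or per treatment. Treated and untreated cells were therefore not compared, there is no replicate error for any single summit, and the read depth behind a summit is unknown.

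Complex I takes electrons from NADH and passes them through a flavin and a chain of iron-sulfur clusters to ubiquinone, pumping protons across the inner mitochondrial membrane as it does so. Its core subunits are divided between the mitochondrial genome, which codes for those of the membrane arm, and the nuclear genome, which codes for those of the matrix arm and for every accessory subunit and assembly factor. NRF1 was first described as a regulator of nuclear genes for respiration, YY1 and SP1 bind the promoters of many housekeeping genes, and ZNF143 is a zinc finger protein that binds promoters close to the start of transcription.

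A summit was counted for a gene when it lay within 500 bp of the gene's 5′-most annotated end. Offsets run in the direction of transcription, so that a negative offset lies upstream of that end. The score is the value in column 5 of the lists, a −log10 p or q, and was compared only within a list. Where a gene had several summits of a list, the summit with the highest score stood for the gene.

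Short sequences carried by these promoters recur in the results, and the examples below were read from hg38 because they lay within 50 bp of a highest-scoring summit. Each is printed 5′ to 3′ in the direction of transcription of the NDUF gene, and the capitals mark the match to the factor's consensus on either strand. The YY1 consensus was AANATGGCG. In the first 6 of the sequences that follow, the ATG within the capitals is the annotated start codon of the gene.
NDUFA9, chr12:4649114-4649143, plus strand: attgtgggaaAAGATGGCGgctgccgcaca
NDUFS4, chr5:53560650-53560679, plus strand: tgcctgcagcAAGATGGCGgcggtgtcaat
NDUFS6, chr5:1801405-1801434, plus strand: ccagcggcgcAAAATGGCGgcggcgatgac
NDUFS7, chr19:1383914-1383943, plus strand: ggccgaggccAAGATGGCGgtgctgtcagg
NDUFA7, chr19:8321343-8321372, minus strand: atcgcggacggAAGATGGCGtccgccaccc
NDUFB8, chr10:100529836-100529865, minus strand: tgaagaaggtgAAGATGGCGgtggccaggg
NDUFAF8, chr17:81239317-81239346, plus strand: ggacggacctAAGATGGCGgcctccagggg
NDUFB1, chr14:92121975-92122004, minus strand: acagtggcagcCGCCATTTTggagctggag
NDUFS1, chr2:206159411-206159440, minus strand: ttagccgaggcCGCCATATTgaataagcga

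The NRF1 consensus, GCGC and TGCGC separated by any 1 letter, is close to a palindrome. The promoters below, which held it under NRF1 summits, include those of NDUFS7 and NDUFA8, at which the NRF1 scores of the family were highest.
NDUFS7, chr19:1383472-1383511, plus strand: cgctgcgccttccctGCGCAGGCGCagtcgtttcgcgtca
NDUFA8, chr9:122159764-122159793, minus strand: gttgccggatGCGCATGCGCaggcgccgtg
NDUFA12, chr12:95003789-95003828, minus strand: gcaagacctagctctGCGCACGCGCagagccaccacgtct
NDUFAF5, chr20:13785014-13785043, plus strand: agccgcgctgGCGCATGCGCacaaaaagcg
NDUFS8, chr11:68030893-68030922, plus strand: ggctctcaggGCGCATGCGCcgcccgctct

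The ZNF143 consensus searched was CCCA and ATGC separated by any 2 letters. It was found under the highest ZNF143 summit of NDUFAB1 and, at the canonical start of transcription, of NDUFB2. The capitals in the NDUFB10 sequence, at the highest ZNF143 score among the 48 genes, mark instead ACTACA and TCCCA separated by any 2 letters, the upstream side of a longer form of the ZNF143 site, which overlaps the consensus by the letters CCCA.
NDUFAB1, chr16:23596292-23596321, minus strand: gcggcgcagtGCATCCTGGGttggcgtagc
NDUFB2, chr7:140696935-140696974, plus strand: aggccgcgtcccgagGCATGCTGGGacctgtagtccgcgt
NDUFB10, chr16:1959452-1959511, plus strand: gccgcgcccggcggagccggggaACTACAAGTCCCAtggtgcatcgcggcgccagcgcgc

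Most NDUF genes had a summit of each factor at their 5′ end. SP1 summits were found at 44 of 48 genes (91.7%, Wilson 95% interval 80.4 to 96.7), against 59.1% of all protein-coding genes. YY1 summits were found at 42 genes (87.5%, 75.3 to 94.1), against 57.8% of all genes. NRF1 summits lay at 37 genes (77.1%, 63.5 to 86.7), against 48.3% of all genes. ZNF143 summits lay at 34 genes (70.8%, 56.8 to 81.8), against 31.7% of all genes. These intervals cover the counting error of a share of genes and no replicate error. With every list reduced to the length of the shortest, that of ZNF143, YY1 summits lay at 40 NDUF genes (36.0% of all genes), NRF1 summits at 34 (40.2%) and SP1 summits at 29 (32.6%). With each summit counted only for the nearest protein-coding 5′ end, ZNF143 summits lay at 22 NDUF genes (27.5%), SP1 at 30 (53.5%), NRF1 at 27 (43.7%) and YY1 at 31 (53.6%).

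The same shares in other nuclear genes for mitochondrial proteins were near those of complex I. The genes of complexes II to V were taken by symbol alone (SDHA to SDHD, CYC1, or starting with UQCR, COX or ATP5). The set therefore also holds genes that are not subunits, such as the read-through ATP5MF-PTCD1. Among these 60 genes, 63.3% had a ZNF143 summit, 81.7% an SP1 summit, 76.7% an NRF1 summit and 76.7% a YY1 summit. Among 78 genes of mitochondrial ribosomal proteins the shares were 76.9%, 94.9%, 87.2% and 94.9% in the same order. The Wilson interval of the NDUF genes overlapped that of both other lists for every factor. Of 12 further assembly factors of complex I without the NDUF prefix, 9 had a summit of each list and the other 3 had none. Counted at the start of the Ensembl canonical transcript, all 12 had a summit of each list.

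**Figure D1:**
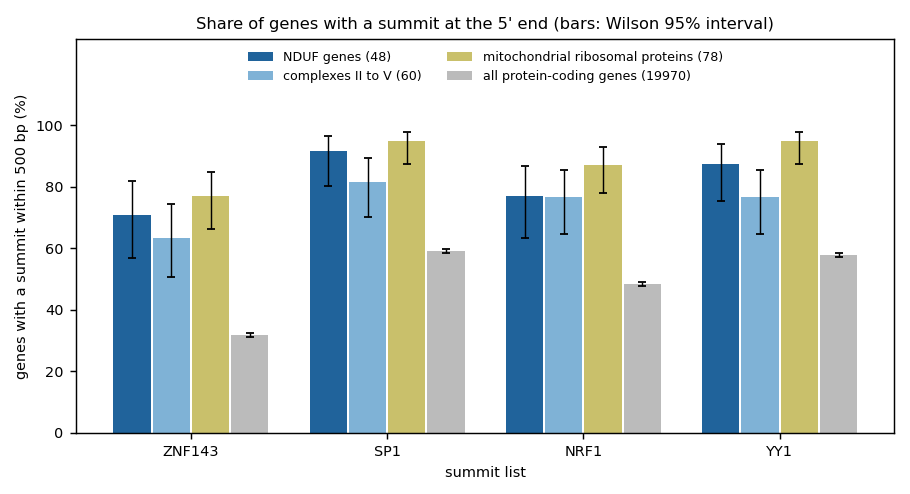
Share of genes with a summit within 500 bp of the 5′ end (vertical axis, %), for each of the 4 summit lists (horizontal axis) in 48 NDUF genes, 60 genes of complexes II to V, 78 mitochondrial ribosomal protein genes and all 19970 protein-coding genes. Error bars are Wilson 95% intervals; for each list the interval of the NDUF genes overlaps those of both other mitochondrial sets and lies above the share of all genes.

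All 4 factors had a summit at 31 NDUF genes (64.6%), against 28.1% of all genes, and no factor did at 4 (8.33%), against 37.3% of all genes. Between these, 8 genes had summits of 3 lists (16.7%, against 20.1%), 4 had 2 lists (8.33%, against 9.48%) and 1 had 1 list (2.08%, against 5.01%). The 31 genes with all 4 factors included 4 of the 7 core subunits (57.1%), which bind the flavin and the iron-sulfur clusters, 6 of 9 accessory subunits of the matrix arm (66.7%), 13 of 20 of the membrane arm (65.0%), NDUFAB1 and 4 of 8 assembly factors (50.0%). With only the nearest gene counted, 17 NDUF genes had all 4 factors, against 21.9% of all genes, and 9 had none, against 39.1%. With the top 50% of each list by score, 20 had all 4, against 16.2%.

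The 8 genes that lacked exactly 1 factor lacked either ZNF143 or NRF1 and never SP1 or YY1. This is not particular to the family. Over all genes, 6184 of the 6323 with a ZNF143 summit also had an SP1 summit, and 6161 a YY1 summit. Few genes could therefore lack SP1 or YY1 alone. Among the 8, ZNF143 was the missing factor at NDUFA6, NDUFA8, NDUFA12, NDUFB4 and NDUFS8. The nearest ZNF143 summit to NDUFA6 lay 19809 bp away, and that to NDUFB4 146010 bp away. NDUFA12, a matrix-arm subunit near the NADH-oxidizing end of the complex, had its nearest ZNF143 summit at 69303 bp. NRF1 was missing at NDUFA10, a membrane-arm subunit related to nucleoside kinases, at NDUFAF2, an assembly factor that is a paralog of NDUFA12, and at NDUFB1. The nearest NRF1 summit to NDUFA10 lay 409578 bp away.

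NDUFAF7, NDUFB5 and NDUFS4 had only SP1 and YY1. NDUFAF7 is a methyltransferase that modifies a subunit of the complex, and NDUFS4 is a matrix-arm subunit whose loss in patients causes Leigh syndrome. At NDUFS4 the nearest ZNF143 summit was 144079 bp away and the nearest NRF1 summit 450817 bp away, while its YY1 summit at 42 bp scored 3629. NDUFC1, singled out after its values were seen, had SP1 and NRF1 within the window. Its nearest ZNF143 and YY1 summits lay outside the window, at 1121 and 1043 bp, with scores of 758 and 2299.

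**Figure D2:**
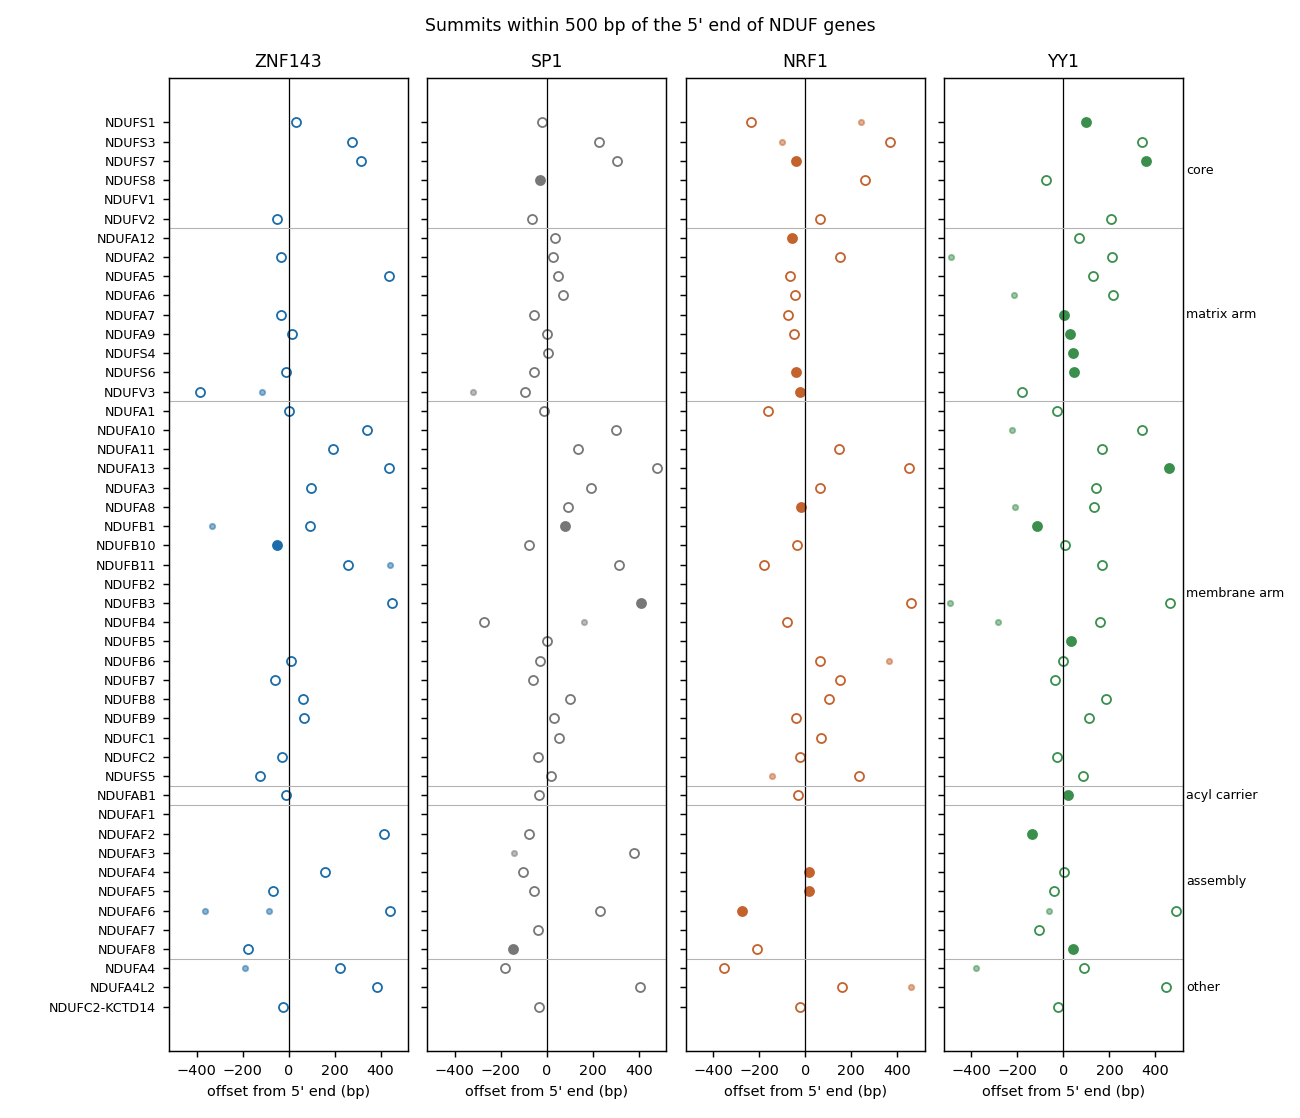
Every summit within 500 bp of the 5′ end of NDUF genes (rows, grouped by role), by its offset in bp in the direction of transcription (horizontal axis), 1 panel per list. Large circles are the highest-scoring summit of a gene, filled where it is in the top 10% of all genes with a summit of that list; small dots are further summits; the rows of NDUFV1, NDUFB2 and NDUFAF1 are empty.

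Among the genes with no summit of any list within 500 bp of the 5′-most end were NDUFV1, NDUFB2 and NDUFAF1. NDUFV1 is the core subunit that binds NADH and the flavin, NDUFB2 a small membrane-arm subunit and NDUFAF1 an assembly factor of the membrane arm. In each of these 3 the Ensembl canonical transcript starts well inside the annotated gene, at 1283 bp in NDUFV1, 5931 bp in NDUFB2 and 6907 bp in NDUFAF1. The annotated 5′-most end of these genes comes from other transcripts, which start farther upstream, and their summits lay at the canonical start.

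At NDUFB2 the ZNF143 summit scored 7886 at 220 bp from the canonical start, rank 516 of 6955 genes (top 7.42%), above every ZNF143 score at the 5′-most ends of the 48 genes. Its SP1 summit scored 315, its NRF1 summit 266 and its YY1 summit 536. NDUFV1 had a ZNF143 summit at -122 bp with a score of 3772, and SP1, NRF1 and YY1 summits of 290, 74.4 and 136. NDUFAF1 had ZNF143, SP1 and YY1 summits at -19, -26 and -29 bp, with scores of 98.4, 212 and 381, and none of NRF1.

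The canonical start lay more than 500 bp from the 5′-most end in 11 NDUF genes, against 21.6% of all genes. Besides the genes just named they included NDUFA4L2, NDUFAF3, NDUFAF6, NDUFB3, NDUFB11, NDUFS3 and NDUFV3. NDUFAF3, an early assembly factor that binds NDUFAF4, had an SP1 summit of 27.4 alone at its 5′-most end and summits of all 4 lists at its canonical start, with 1001 for SP1 and 1105 for YY1. NDUFS3, a core subunit, had YY1 scores of 365 at the 5′-most end and 2667 at the canonical start. NDUFV3 and NDUFAF6 went the other way for NRF1, with 11752 and 6006 at the 5′-most end and 1951 and 109 at the canonical start. NDUFA4L2, a paralog of NDUFA4 induced by hypoxia, had all 4 lists at its 5′-most end and only an SP1 summit, with a score of 2.95, at its canonical start.

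Counted at canonical starts, all 48 NDUF genes had an SP1 summit, against 64.5% of all genes. YY1 summits lay at 46 (63.1% of all genes), NRF1 summits at 40 (52.8%) and ZNF143 summits at 38 (34.8%). Summits of all 4 lists lay at 34 canonical starts, against 31.6% of all genes, and none of the 48 was without a summit, against 33.2%. Summits of all 4 lists lay there at 6 of the 7 core subunits, and NDUFS8 lacked ZNF143 at both positions. The other mitochondrial sets had similar shares at canonical starts. Of the genes of mitochondrial ribosomal proteins, 100% had SP1, 100% YY1 and 79.5% all 4 lists, and none was without a summit. In complexes II to V, 88.3% had SP1, 86.7% YY1 and 73.3% all 4 lists, and 11.7% had no summit.

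**Figure D3:**
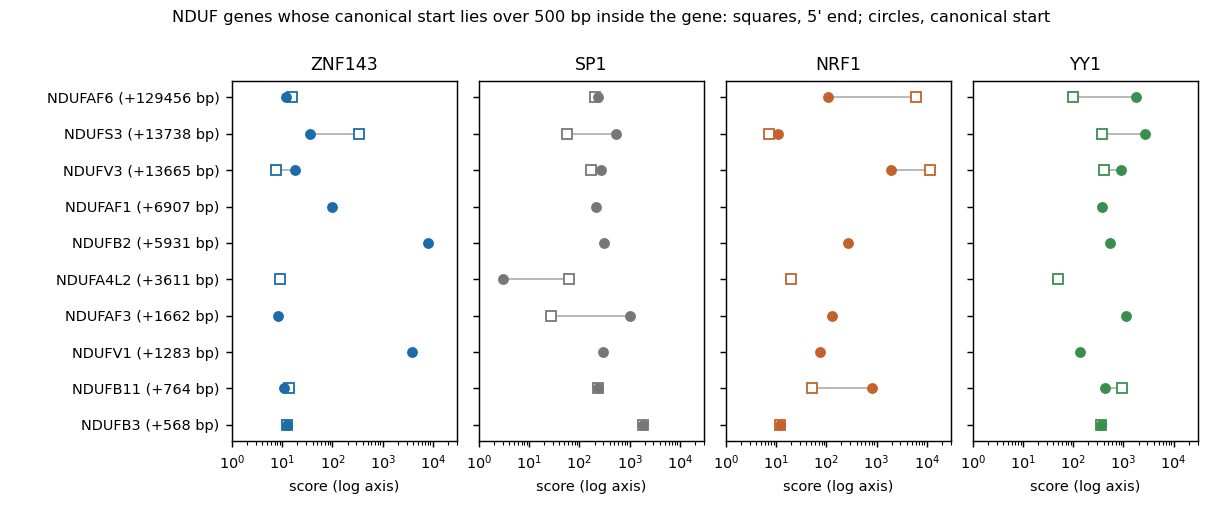
Score of the highest summit (horizontal log axis, −log10 p or q, comparable only within a panel) at the 5′-most end (squares) and at the canonical start (circles) of NDUF genes in which these lie more than 500 bp apart, with the distance in brackets. NDUFAF1, NDUFB2 and NDUFV1 have circles only; the ZNF143 circle of NDUFB2, at 7886, lies farthest right in its panel.

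The position of the summits followed the factor. The median offset of the highest-scoring summit at NDUF genes was 47.5 bp for ZNF143 (quartiles -30.25 and 272.75), 2.5 bp for SP1 (-57.25 and 109.75), -21 bp for NRF1 (-56 and 102) and 76 bp for YY1 (-1.75 and 182.25). Over all genes the medians were -19, -38, -29 and 60 bp. Measured from the canonical start, the medians at NDUF genes were -52.5 bp for ZNF143, -66.5 bp for SP1, -52 bp for NRF1 and 9 bp for YY1. Over all genes they were -59, -73, -66 and 30 bp in the same order. YY1 was thus the only factor with a median downstream of the canonical start, at NDUF genes as over all genes.

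YY1 summits lay downstream of those of the other factors at most NDUF genes. The YY1 summit lay downstream of the SP1 summit at 33 of 42 genes (78.6%, against 62.6% of all genes with both), by a median of 41.5 bp. It lay downstream of the NRF1 summit at 26 of 36 genes (72.2%, against 60.1%) and of the ZNF143 summit at 24 of 34 (70.6%, against 57.6%). The SP1 summit lay downstream of the ZNF143 summit at 10 of 34 genes (29.4%, against 48.3%). NRF1 summits showed no such order with those of ZNF143 or SP1, lying downstream of ZNF143 at 14 of 31 genes (45.2%, against 47.5%) and of SP1 at 20 of 37 (54.1%, against 49.5%).

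By annotation, most summits other than those of YY1 lay upstream of the canonical start. The highest SP1 summit lay upstream of the canonical start at 41 of 44 NDUF genes (93.2%, against 82.6% of all genes), the NRF1 summit at 31 of 37 (83.8%, against 78.0%) and the ZNF143 summit at 28 of 34 (82.4%, against 74.2%). The YY1 summit did so at 21 of 42 (50.0%, against 53.9%). In 19 of the other genes it lay in an exon of the canonical transcript (45.2%, against 35.2%), in coding sequence at 9 (NDUFA2, NDUFA5, NDUFA6, NDUFA8, NDUFB4, NDUFB8, NDUFB9, NDUFS4 and NDUFS6) and in an untranslated region at 10.

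In 16 NDUF genes the highest summits of 3 or 4 lists fell within 50 bp of each other (33.3%, against 10.7% of all genes). In 3 of them those of all 4 lists did (6.25%, against 1.70%). These shares also count the genes with too few lists to form a cluster. Summits of all 4 lists lay at 64.6% of NDUF genes and 28.1% of all genes, so that the shares of clusters carry this difference in presence. The 3 genes include NDUFC2 and NDUFC2-KCTD14, for which the same summits were counted. At their shared promoter the 4 summits spanned 13 bp, the tightest span of all 4 lists, in the order SP1, ZNF143, YY1, NRF1. At NDUFA13, a membrane-arm subunit also known as GRIM-19, the 4 summits spanned 44 bp between 436 and 480 bp from the 5′-most end, beside its canonical start at 489 bp. At NDUFB3 the summits of ZNF143, NRF1 and YY1 spanned 13 bp between 451 and 464 bp.

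Scores stood above those of all genes for YY1 and NRF1 more than for SP1 and ZNF143. The median YY1 score was 481 at NDUF genes and 139 over all genes, and the median NRF1 score was 160 against 48.0. Without NDUFA4, NDUFA4L2 and NDUFC2-KCTD14 the NRF1 median was 1319 and the YY1 median 743, and at canonical starts the YY1 median was 750. The YY1 median was higher still in the other mitochondrial sets, at 679 in complexes II to V and 1293 in mitochondrial ribosomal proteins, while the NRF1 medians were 231 and 92.5. The medians of the other factors were close to those of all genes, at 27.4 against 23.6 for ZNF143 and 202 against 197 for SP1. The top 10% of all genes with a summit held 12 of the 42 NDUF genes with YY1 (28.6%), 8 of the 37 with NRF1 (21.6%), 4 of the 44 with SP1 (9.09%) and 1 of the 34 with ZNF143 (2.94%), where the background is 10.0% for each list. For YY1 the top 10% held 28.3% of the genes of complexes II to V with a summit and 44.6% of those of mitochondrial ribosomal proteins, and for NRF1 17.4% and 14.7%.

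NRF1 and ZNF143 scores fell into a high and a low range, at NDUF genes as over all genes. Between 100 and 1000 lay 3 of 37 NDUF genes for NRF1 (15.8% of all genes) and 3 of 34 for ZNF143 (9.66% of all genes). NRF1 scores exceeded 1000 at 17 of 37 genes (45.9%, against 25.1% of all genes) and were under 100 at 17 (59.1% of all genes). ZNF143 scores exceeded 1000 at 9 of 34 (26.5%, against 23.7%) and were under 100 at 22 (66.7% of all genes). The ZNF143 split was thus close to that of all genes. YY1 scores exceeded 1000 at 16 of 42 genes (38.1%, against 13.7%) and were under 100 at 3 (41.0% of all genes). SP1 scores lay between 100 and 1000 at 32 of 44 genes (59.7% of all genes) and exceeded 1000 at 2 (4.55%, against 8.45%).

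The highest YY1 score at a 5′-most end was that of NDUFA13, 8376 at an offset of 458 bp, rank 112 of 11546 genes (top 0.970%). It was followed by NDUFAF8, which binds the assembly factor NDUFAF5, with 4654 at 42 bp, and NDUFA9, a matrix-arm subunit near the ubiquinone site, with 4308 at 30 bp. NDUFS7, the core subunit with the last iron-sulfur cluster before ubiquinone, scored 4238 at 360 bp. NDUFB5 scored 4129 at 33 bp. The 12 genes in the top 10% also included the matrix-arm genes NDUFS4, NDUFS6 and NDUFA7, the core subunit NDUFS1, NDUFAB1, NDUFB1 and NDUFAF2. The low end of the YY1 scores was NDUFA8, at 24.4.

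NRF1 scored highest at NDUFS7, with 13711 at -38 bp, rank 153 of 9643 genes (top 1.59%). NDUFA8, a subunit on the intermembrane-space side, scored 12099 at -16 bp and NDUFV3, a matrix-arm subunit, 11752 at -21 bp. NDUFA12 scored 8972 at -56 bp and NDUFS6 8423 at -41 bp. These 5 summits lay between -16 and -56 bp. The assembly factors NDUFAF4, NDUFAF5 and NDUFAF6 completed the top 10%, with 6798, 6532 and 6006. Their summits lay outside that range, at 15, 17 and -273 bp. Of the 4 assembly factors with an NRF1 summit, NDUFAF8 was the exception, at 16.6.

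SP1 scored highest at NDUFAF8, with 6675 at -149 bp, rank 14 of 11807 genes (top 0.119%). The next gene, NDUFB3, scored 1812 at 411 bp, and NDUFS8, NDUFB1 and NDUFS7 followed with 978, 944 and 805. NDUFAF8 was thus in the top 10% for SP1 and for YY1, while its ZNF143 and NRF1 summits scored 7.64 and 16.6.

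ZNF143 scored highest at NDUFB10, a membrane-arm subunit of the intermembrane-space side, with 6720 at -52 bp, rank 565 of 6323 genes (top 8.94%). NDUFA2, a matrix-arm subunit with a thioredoxin-like fold, scored 5114 at -31 bp, NDUFA7 4170 at -33 bp, NDUFAF5 3834 at -68 bp and NDUFAB1 3683 at -10 bp. These 5 summits lay upstream of the 5′-most end, unlike the median of the 34 genes, but those of the genes that came next lay downstream. NDUFA9 scored 3298 at 13 bp and NDUFA1 3237 at 4 bp.

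A place in the top 10% of at least 1 list was held by 21 of the 48 genes (43.8%, against 16.3% of all genes). A place in exactly 2 was held by 4 (8.33%, against 2.89%), with SP1 and YY1 at NDUFAF8 and NDUFB1 and with NRF1 and YY1 at NDUFS6 and NDUFS7. None was in the top 10% of 3 lists, against 0.265% of all genes.

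**Figure D4:**
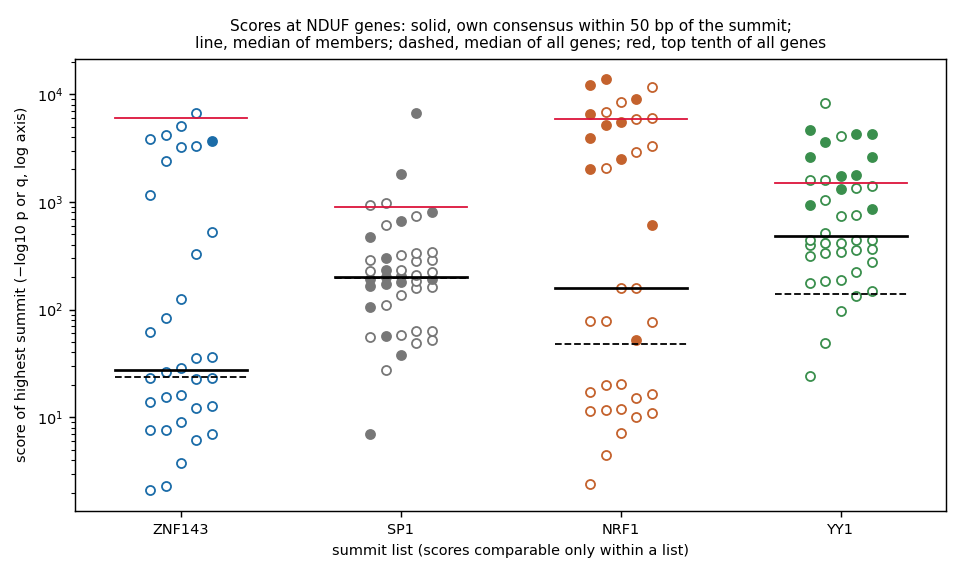
Score of the highest summit of each NDUF gene (vertical log axis, −log10 p or q) by summit list (horizontal axis; scores are comparable only within a list). Filled circles have the factor's consensus within 50 bp; solid and dashed black lines are the medians of NDUF genes and of all genes, and the red line is the lower bound of the top 10%, which 12 YY1 and 8 NRF1 circles pass.

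The sequences printed above differed in how often they occurred within 500 bp of the 5′-most end, on either strand. The YY1 letters AANATGGCG were found at 14 of 48 NDUF genes (29.2%), against 7.54% of all genes. They were found at 26.7% of the genes of complexes II to V and 25.6% of those of mitochondrial ribosomal proteins. The NRF1 letters were found at 11 NDUF genes (22.9%), against 10.2% of all genes, and at 26.7% and 15.4% of the same sets. The ZNF143 letters were found at 3 (6.25%), against 5.04%, and the upstream letters of the longer form at NDUFB10 alone (2.08%), against 2.59%. The SP1 letters GGGCGG were found at 39 (81.2%), against 72.0%. The ETS letters CCGGAAG, for a family of factors not assayed here, were found at 10 (20.8%), against 20.8%, while 41.7% of the genes of complexes II to V and 42.3% of those of mitochondrial ribosomal proteins held them. A match is a stretch of letters and not evidence of binding.

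The YY1 letters lay within 50 bp of the highest YY1 summit at 11 of 42 genes (26.2%, against 6.56% of all genes with a YY1 summit). Those genes were NDUFA7, NDUFA9, NDUFAF8, NDUFB1, NDUFB8, NDUFB11, NDUFS1, NDUFS4, NDUFS6, NDUFS7 and NDUFS8. Their YY1 scores had a median of 2588 (854 to 4654), and those of the 31 genes without the letters a median of 400 (24.4 to 8376). The 2 ranges overlapped, since NDUFA13 and NDUFB5, with 8376 and 4129, lacked an exact copy. Of the 12 genes in the top 10% of YY1, 8 held the letters (66.7%), against 41.0% of all genes in that top 10%.

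The NRF1 letters lay within 50 bp of the highest NRF1 summit at 11 of 37 genes (29.7%, against 17.5%), which were all the NDUF genes that held them at all. They were NDUFA3, NDUFA8, NDUFA9, NDUFA11, NDUFA12, NDUFAF5, NDUFB4, NDUFB7, NDUFB11, NDUFS7 and NDUFS8. The median NRF1 score was 5190 with the letters (51.7 to 13711) and 48.3 without (2.41 to 11752). The 2 ranges overlapped, since NDUFB11 scored 51.7 with the letters, and NDUFV3, NDUFS6, NDUFAF4, NDUFAF6 and NDUFB10 scored 11752, 8423, 6798, 6006 and 5834 without them. Of the 8 genes in the NRF1 top 10%, 4 held the letters (50.0%), against 70.8% of all genes in that top 10%.

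The ZNF143 letters lay within 50 bp of the highest ZNF143 summit at NDUFAB1 alone among the 34 genes (2.94%, against 4.43%). The SP1 letters did so at 18 of 44 genes (40.9%, against 43.4%), with a median SP1 score of 197 with them and 217 without.

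The YY1 letters contain ATG, and in the genes whose sequences stand first above that ATG is the start codon. Of the 31 NDUF genes whose canonical start codon lay within 500 bp of the 5′-most end, 7 had AANATGGCG on it (22.6%), against 4.16% of 9527 such genes. They were NDUFA6, NDUFA7, NDUFA9, NDUFB8, NDUFS4, NDUFS6 and NDUFS7, of which 5 are matrix-arm accessory subunits. The letters within 500 bp, but without their ATG on the start codon, were found at 2 of the 31 (6.45%), against 5.24%. At NDUFV2, which is among these 2, the match lies on the opposite strand and overlaps the start codon. The shorter ATGGCG, chosen for the count after these values were seen, stood on the start codon of 13 of the 31 genes (41.9%), against 12.9%, with NDUFA2, NDUFA5, NDUFA11, NDUFAB1, NDUFB5 and NDUFB9 added to the 7.

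YY1 summits lay beside these start codons. The distance from the highest YY1 summit to the A of the start codon was 2 bp at NDUFA9, 12 bp at NDUFS4, 13 bp at NDUFA7, 33 bp at NDUFS6, 38 bp at NDUFB8 and 40 bp at NDUFS7. NDUFA6, which also had the letters on its start codon, had its highest YY1 summit 75 bp away with a score of 276. Of the 6 genes with the shorter letters alone, NDUFAB1 was nearest at 6 bp and NDUFA11 farthest at 131 bp. Other NDUF genes had a YY1 summit at the start codon without these letters there, such as NDUFA12, 1 bp away with a score of 1047.

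**Figure D5:**
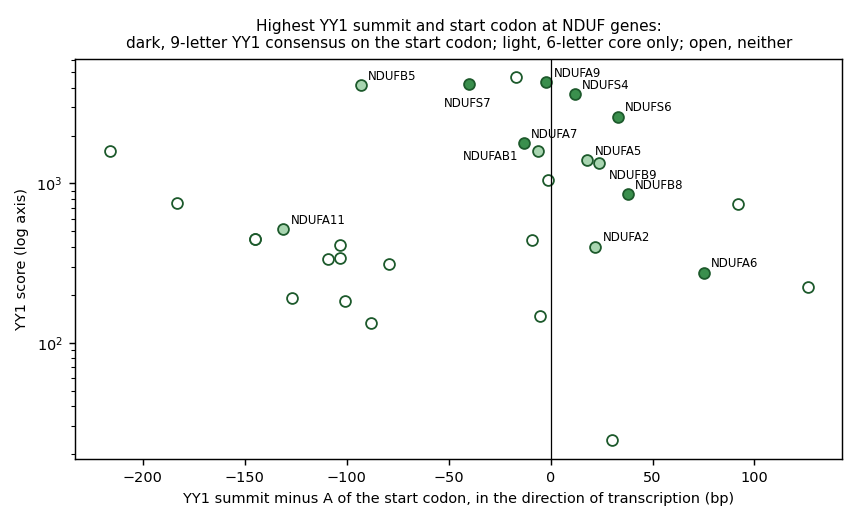
Distance of the highest YY1 summit from the A of the canonical start codon (horizontal axis, bp in the direction of transcription) against its YY1 score (vertical log axis), for the 31 NDUF genes with the start codon within 500 bp of the 5′-most end. Dark circles have AANATGGCG with its ATG on the start codon, light ones only ATGGCG and open ones neither. The dark circles lie within 75 bp of 0.

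The YY1 letters were held by 4 of 7 core subunits and 5 of 9 matrix-arm accessory subunits, against 4 of 20 membrane-arm subunits and 1 of 8 assembly factors. The median YY1 score was 1312 at the 5 core subunits with a summit, 1397 at the 9 matrix-arm accessory subunits, 402 at 18 membrane-arm subunits and 584 at 6 assembly factors. For NRF1 the medians were 15.0 at 5 core subunits, 3085 at 8 matrix-arm subunits, 77.5 at 16 membrane-arm subunits and 6269 at 4 assembly factors. The core subunits had both very high and very low NRF1 scores, from 4.44 at NDUFS1 to 13711 at NDUFS7. ZNF143 scores at the 4 core subunits with a summit ran from 2.11 at NDUFS1 to 520 at NDUFV2, with no score above 1000, whereas NDUFV1 reached 3772 at its canonical start.

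A protein-coding partner on the opposite strand, with its 5′ end within 1000 bp and the gene bodies pointing apart, was found for 15 NDUF genes, against 8.56% of all genes. In 2 pairs the partner also codes for a mitochondrial ribosomal protein: NDUFB5 with MRPL47 and NDUFS6 with MRPL36, each 41 bp apart. The other close pairs were NDUFAF7 with CEBPZ (35 bp), NDUFA3 with OSCAR (36 bp), NDUFA9 with AKAP3 (44 bp), NDUFB1 with CPSF2 (52 bp), NDUFS1 with the elongation factor gene EEF1B2 (76 bp), NDUFV3 with WDR4 (76 bp), NDUFAF5 with ESF1 (88 bp) and NDUFA1 with RNF113A (99 bp). NDUFAF2 with the repair gene ERCC8, NDUFA8 with MORN5, NDUFA13 with TSSK6, NDUFAF8 with TEPSIN and NDUFA11 with an unnamed gene lay 104 to 835 bp apart.

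A summit in such a shared promoter cannot be assigned to either gene. All 15 paired NDUF genes had SP1 and YY1 summits, against 92.3% and 90.8% of all paired genes, 12 had ZNF143 (80.0%, against 68.1%) and 11 had NRF1 (73.3%, against 83.6%). Of the 33 without a partner, 29 had SP1 (87.9%, against 56.0% of all genes without one), 27 had YY1 (81.8%, against 54.7%), 22 had ZNF143 (66.7%, against 28.2%) and 26 had NRF1 (78.8%, against 45.0%). All 4 lists had summits at 10 of the 15 and 21 of the 33. Over all genes the shares with all 4 lists were 63.3% with a partner and 24.9% without, so that the NDUF genes without a partner (63.6%) stood above other genes without one, and those with a partner (66.7%) were close to other genes with one. Any other protein-coding 5′ end, on either strand, lay within 500 bp of 23 NDUF genes (47.9%), against 14.6% of all genes.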

How the data were processed

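The authors deposited 1 list of ChIP-seq peak summits for each of ZNF143, SP1, NRF1 and YY1, with a position and a score per summit. From the values, the score in the deposited lists is a −log10 p-value or q-value, and which of them is not given in the sources used here. The submitters' processing notes name cutadapt, Bowtie2, SAMtools 1.16.1, MACS3, bedtools and hg38, without roles or settings. Per the labels, the ZNF143 and SP1 lists belong to treated and untreated samples alike; the NRF1 and YY1 lists were matched by antibody name. The lists held 16600 (ZNF143), 126275 (SP1), 39194 (NRF1) and 106658 (YY1) summits, and a deeper library gives more summits and higher scores.

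Summits were joined to GENCODE 44 gene ends and hg38 sequence in Python 3.11.15 with numpy 2.4.6, and intervals computed with scipy 1.17.1. The steps were tested on simulated data. No test was run, since the lists hold no replicates. Named with values were the 5 highest scores per list, genes without summits or lacking 1 list, genes with an own consensus at the summit, paired genes, and genes with 3 or 4 summits within 50 bp. Other genes given with values, among them those with a distant canonical start, were chosen after the values were seen. The members, lists of genes and rules were chosen with earlier results of these data known. Alternatives were other distances, the canonical start, stricter and equal-length lists, nearest gene only, omitted members, and 1 mismatch. The values of 1 member, which enters the counts, are not reported here.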

Additional observations from a re-analysis of the deposited data

How the results depend on the processing

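Of 115 values recomputed under alternatives, 94 stayed within a set range of the main value. For counts the range was a change of at most 1.5 times, whatever the number of genes left. For medians it was an interval of the median over the member genes, which holds no replicate error. That interval is wide, and the NRF1 and YY1 median scores given below all fell within it. Measured from canonical starts, median offsets became -52.5 (ZNF143), -66.5 (SP1), -52 (NRF1) and 9 bp (YY1), and 0 genes lacked every list (33.2% of all genes). With the top 50% of each list by score, 20 genes had all 4 lists (16.2% of all genes). With lists of equal length (16165 summits), SP1 summits lay at 29 NDUF genes (32.6%). With each summit given only to the nearest protein-coding 5′ end, ZNF143 was found at 22 genes (27.5%), 9 genes had no list (39.1%) and 17 had all 4 (21.9%). Without paired genes, an alternative chosen after seeing the data that leaves 33 genes, ZNF143 lay at 22 (28.2% of all genes without a partner), SP1 at 29 (56.0%) and YY1 at 27 (54.7%). With 1 mismatch allowed, promoters with a consensus numbered 31 for ZNF143 (61.7% of all genes), 23 for NRF1 (38.6%), 31 for YY1 (46.8%) and 47 for ETS (94.0%), and highest summits with one numbered 8 of 34 for ZNF143 (20.3% of all genes), 40 of 44 for SP1 (91.4%), 21 of 37 for NRF1 (40.3%) and 18 of 42 for YY1 (17.5%). The median NRF1 score of 160 was 385 within 250 bp, 1319 without the 3 genes that are not subunits and 2029 with the nearest gene only, and the median YY1 score of 481 was 743 without those 3 genes and 750 at canonical starts. No paired analysis was possible because no result comes from a test. Read depth is unknown, so that the absence of a summit is not evidence that a factor does not bind.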
